A study of Homo sapiens with 8 samples.

Results

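The genes for the death ligand TRAIL (TNFSF10), its 4 surface receptors (TNFRSF10A, TNFRSF10B, TNFRSF10C and TNFRSF10D) and the related death receptor FAS were followed in maps of open chromatin. The assay was ATAC-seq, where an enzyme inserts sequencing tags into DNA that is not packed away. The cells were U-937, an established human line of monocytic leukaemia. These are 6 of 20033 annotated protein-coding genes. Every peak overlapping the GENCODE gene body or the 50 kb on either side of it was taken, on the human build hg38. Peaks of the 4 groups were merged where they overlapped, which gave 81 regions around the 6 genes out of 161291 in the genome. TNFSF10 had 14 of these regions, FAS had 12, and the receptor genes TNFRSF10A to TNFRSF10D, whose windows overlap, shared 55.

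All cells were U-937 treated for 24 h. One group received the vehicle DMSO, one all-trans retinoic acid (ATRA) at 0.1 µM, one Corin at 0.1 µM, and one both compounds at 0.1 µM each, called the combination below. ATRA is the ligand of the retinoic acid receptors and drives maturation of some myeloid leukaemia cells. Corin is a dual inhibitor of the CoREST co-repressor complex, blocking both its LSD1 demethylase and its histone deacetylase subunits. Each group had 2 samples, 8 in all, but 1 peak list per group was analysed here, made by the authors from the combined replicates. Replicate spread is thus unknown for all values, no difference could be tested, and every comparison is between lists.

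TRAIL is a membrane ligand of the tumour necrosis factor family that triggers apoptosis through receptors with a cytoplasmic death domain. TNFRSF10A and TNFRSF10B carry that domain and recruit FADD and caspase-8, as FAS does when bound by its own ligand. TNFRSF10C, which is anchored to the membrane by a lipid, and TNFRSF10D, whose death domain is truncated, bind TRAIL without passing on the death signal and are known as decoy receptors. In myeloid leukaemia cells TRAIL is known as a gene that retinoic acid and interferons can switch on.

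The value given for each region is the authors' fold of its strongest peak over the local background of that list. The lists held between 189896 and 222491 peaks, of which between 132 and 147 lay in the windows of the 6 genes. Read depth is unknown. The commonest local background, as a count of overlapping reads solved from the authors' fold and p, was 12.8 with DMSO, 9.12 with ATRA, 13.1 with Corin and 13.9 with the combination. Folds in the ATRA list were higher than with DMSO by a median of 0.31 on the log2 scale, and the part of the background in this was not tested. All log2 ratios below are centred on the median over the 66303 regions present in all 4 lists, and a region is called higher or lower when it passes 1.5-fold. Intervals given with ratios are 95% intervals for counting error in the 2 solved pileups only. Of 6 myeloid marker genes, 5 had an open promoter in each list, and all 3 erythroid markers had none. Promoters of lymphoid markers were also called, 1 of 3 for T cells and 2 of 3 for B cells in each list. The epithelial marker EPCAM was called with DMSO only.

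Sequences are shown for 4 of the TNFSF10 and FAS regions on which the results turn, as 200 bases centred on the highest summit of the region, 5′ to 3′ on the plus strand of hg38. Capitals mark matches on either strand to the motifs searched, which are described after the sequences. The first set holds 3 regions that were higher with ATRA, named by their distance from the gene's start.
TNFSF10, 23.6 kb upstream: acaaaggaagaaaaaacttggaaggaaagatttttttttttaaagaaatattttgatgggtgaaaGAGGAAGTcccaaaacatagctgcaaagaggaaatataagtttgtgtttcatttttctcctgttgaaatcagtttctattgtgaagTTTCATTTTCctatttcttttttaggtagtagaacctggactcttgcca
TNFSF10, 15.6 kb upstream: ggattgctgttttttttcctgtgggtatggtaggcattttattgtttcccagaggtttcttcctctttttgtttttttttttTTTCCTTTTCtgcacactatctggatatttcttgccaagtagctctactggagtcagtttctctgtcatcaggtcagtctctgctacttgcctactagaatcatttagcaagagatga
FAS, 6.4 kb downstream of the start: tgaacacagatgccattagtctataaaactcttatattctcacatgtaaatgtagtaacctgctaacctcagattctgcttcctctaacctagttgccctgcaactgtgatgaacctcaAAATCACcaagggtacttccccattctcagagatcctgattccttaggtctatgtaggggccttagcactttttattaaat
The next sequence belongs to a TNFSF10 region that was present with DMSO and Corin, weak with the combination and not called with ATRA.
TNFSF10, 27.3 kb upstream: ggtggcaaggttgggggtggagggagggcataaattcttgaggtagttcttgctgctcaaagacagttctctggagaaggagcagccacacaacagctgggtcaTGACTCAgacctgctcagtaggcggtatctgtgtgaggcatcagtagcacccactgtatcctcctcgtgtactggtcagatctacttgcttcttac
For comparison, the bases ahead of the TNFSF10 gene, on its own minus strand, come from RefSeq on the same assembly (chr3:172523476-172523680).
TNFSF10 promoter: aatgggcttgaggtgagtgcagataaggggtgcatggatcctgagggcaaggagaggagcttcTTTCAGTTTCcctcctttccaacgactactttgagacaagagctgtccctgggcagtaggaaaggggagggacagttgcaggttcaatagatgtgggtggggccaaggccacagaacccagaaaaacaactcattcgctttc

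The motif GAAANNGAAA, the core of the interferon-stimulated response element (ISRE) bound by interferon regulatory factors, was found in 3 of the 81 windows, against 3.10% of all 161291 windows of this size. Those 3 were the TNFSF10 windows 15.6 and 23.6 kb upstream and the FAS window 15.7 kb upstream, where the match reads GAAAGTGAAA. Each of these 3 regions was either higher with ATRA than with DMSO or called with ATRA and not with DMSO, a coincidence noticed after the values were seen. The TNFSF10 promoter sequence also holds a match. Across the genome 30.3% of the ISRE regions called in both lists were higher with ATRA, against 17.5% of all regions. Regions with the PU.1 core GAGGAAGT, a myeloid factor's motif that is also found 23.6 kb upstream of TNFSF10, were higher in 33.4%. That core was in 3 of the 81 windows (6.77% of all windows). Of these 3 regions 1 was higher with ATRA, 1 was called with ATRA and not DMSO, and 1 was in both lists and not past 1.5-fold.

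The AP-1 motif TGANTCA, bound by FOS and JUN dimers, was in 12 of the 81 windows (12.1% of all windows). Of these 12 regions, 11 were in the DMSO list and 6 of them were not called with ATRA, while 17 of the 63 regions of the 6 genes in the DMSO list were not called with ATRA. The 6 take in the regions 27.3 and 18 kb upstream of TNFSF10 and 10.4 kb upstream of TNFRSF10C, which were the 3 with a DMSO fold of at least 4 among those 17. Of the other AP-1 regions, that 40.2 kb downstream of the FAS start was higher with ATRA, that 46.5 kb downstream was called with ATRA and not DMSO, and 4 were in both lists and not past 1.5-fold. This tally was made after the values were seen. Of all AP-1 regions in the DMSO list 28% were not called with ATRA, against 25.4% of all regions. The GFI1 core AAATCAC, seen in the FAS intron window, was in 3 of 81 windows (2.37% of all), and the KLF/SP box GGGCGG in 8 (11.4% of all). RUNX matches (TGTGGT) were in 18 (20.7% of all), NF-kB matches in 3 (2.72% of all) and C/EBP matches in 1 (1.54% of all). Retinoic acid receptor direct repeats with spacers of 1, 2 or 5 bases were in 0 of 81 windows, against 0.0744%, 0.169% and 0.0911% of all windows, and p53 matches were in 0 (0.0174% of all). All motifs were searched on both strands, and overlapping matches were each counted. A match is a description of letters, not evidence of binding. Each 50-base piece of these 4 windows, and of those 45.5 and 18 kb upstream of TNFSF10, occurs once in the genome. At 25 bases, 5 of 8 pieces of the window 45.5 kb upstream of TNFSF10 were unique and 1 occurred 691 times. At 18 kb upstream 2 of 8 were unique and 1 occurred 2161 times, so short fragments there could be placed less surely.

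The first comparison asked how ATRA changed open chromatin at the ligand gene. At TNFSF10, 3 of the 11 regions called in both lists were higher with ATRA than with DMSO (17.5% of all regions). Another 2 of its 14 regions were no longer called (20.7% of all regions), and all of these lay upstream. The promoter was open to a like degree in every list. By fold, the changes therefore lay at distal sites between 15.6 and 45.5 kb ahead of the gene, and no region downstream of the start was called higher with ATRA. On solved pileups the regions 33.1 and 61.7 kb downstream of the start were lower with ATRA than with DMSO, at -0.73 and -0.83.

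The largest ratio lay 45.5 kb upstream, in an intron of the long non-coding gene LINC02068 (chr3:172568455-172569567). Its fold was 4.06 with DMSO, 23.2 with ATRA, 5.80 with Corin and 14.3 with the combination. Both lists with ATRA were high and both without it were low. ATRA exceeded DMSO by 2.20 on the centred log2 scale (1.78 to 2.63), and the combination exceeded Corin by 1.19 (0.82 to 1.56). The pileups behind these folds were 55, 248, 81 and 225 reads in the same order. The summit common to all lists stood at 5.45 with Corin, and the higher Corin value came from a second summit, 462 bp from the highest summit of the region, that the DMSO list lacked. With folds at the common summit, Corin exceeded DMSO by 0.51, which is not past 1.5-fold, against 0.60 with the highest fold of the region and 0.52 without centring.

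The region 23.6 kb upstream, in intergenic sequence (chr3:172546302-172547691), had folds of 2.52 with DMSO, 8.90 with ATRA, 2.83 with Corin and 7.96 with the combination. The ratio was 1.51 for ATRA over DMSO (0.97 to 2.05) and 1.38 for the combination over Corin (0.98 to 1.78), which was 0.61 on solved pileups. The region has a pair of main summits. At the one holding the sequence above, the folds were 2.41, 8.90, 2.06 and 7.29. At the other, the ATRA list reached 4.05 and the combination 7.96, so the stronger summit differed between those lists.

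The region 15.6 kb upstream (chr3:172538307-172539519, intergenic) had folds of 4.2 with DMSO, 12.3 with ATRA and 7.23 with the combination, and it was not called with Corin. ATRA exceeded DMSO by 1.23 (0.78 to 1.69) and the combination exceeded DMSO by 0.75 (0.28 to 1.21). In all 3 upstream regions both lists with ATRA stood above DMSO. The combination was below ATRA 45.5 and 15.6 kb upstream, at centred ratios of -0.41 and -0.48, and stood at 0.13 over ATRA 23.6 kb upstream, none of them past 1.5-fold.

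The region 27.3 kb upstream (chr3:172550423-172551171, intergenic) had the opposite order. Its fold was 13.7 with DMSO and 18.3 with Corin, 3.75 with the combination, and it was not called with ATRA. The combination was lower than DMSO by a log2 ratio of -1.90 (-2.29 to -1.52) and lower than Corin by -2.40 (-2.76 to -2.04). Its pileup was 230 reads with DMSO and 70 with the combination. The weaker region 18 kb upstream (chr3:172541287-172541727) had folds of 4.57, 6.15 and 2.28 with DMSO, Corin and the combination and was likewise not called with ATRA. Regions high with ATRA and regions low with it thus alternate along the upstream sequence.

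The other TNFSF10 regions varied less. The strongest, in an intron 10.9 kb downstream of the start (chr3:172511938-172512940), had folds of 25.3, 29.2, 22.7 and 24.0 for DMSO, ATRA, Corin and the combination, and no ratio past 1.5-fold. A region 34.1 kb upstream was called in the 3 treated lists, at 2.63 with ATRA, 3.60 with Corin and 3.46 with the combination, and not with DMSO. A region 61.7 kb downstream of the start, nearer to GHSR, was lower with Corin than with DMSO (3.61 against 6.38, ratio -0.74, -1.24 to -0.23) and not called with the combination. Centred within classes of fold the ratio was -0.58, not past 1.5-fold.

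**Figure D1:**
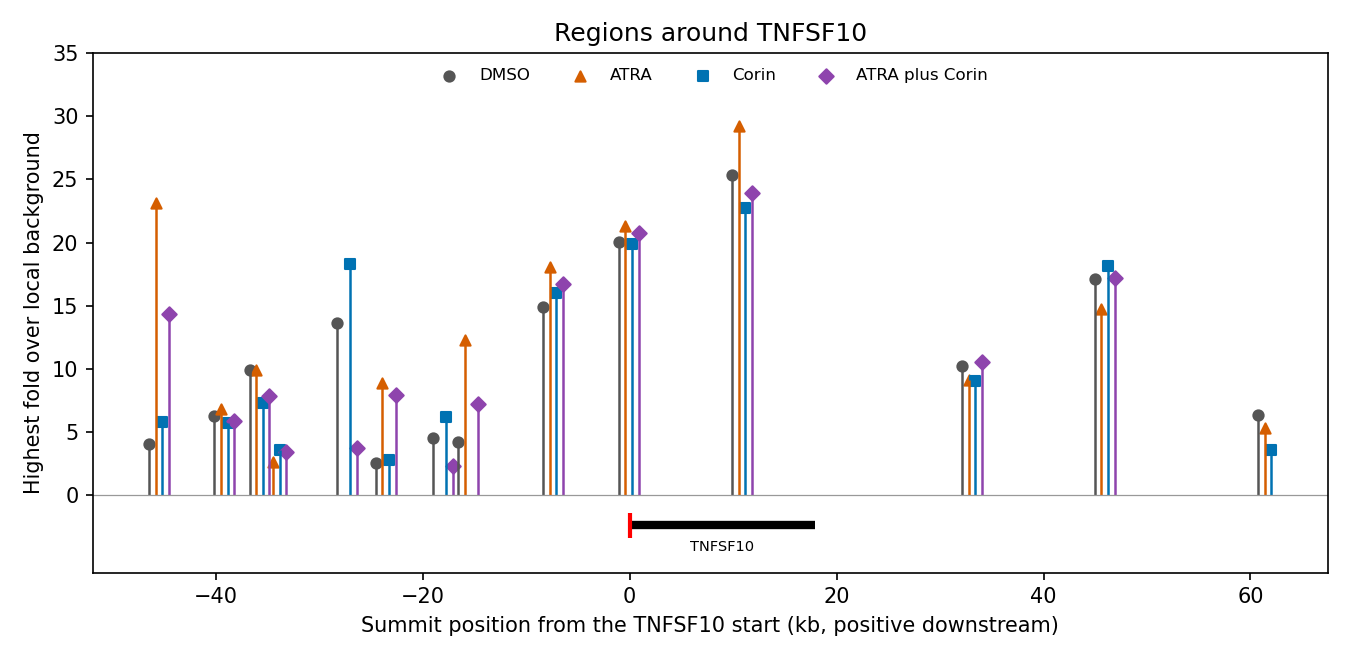
Highest fold over local background (vertical axis, linear) of each region around TNFSF10 by the position of its summit from the start of the gene in kb (horizontal axis). Each stem is 1 peak list, the 4 lists of a region are drawn side by side around its position, a missing stem means no peak was called, and the black bar is the gene with its start in red. The ATRA and combination stems stand highest 45.5, 23.6 and 15.6 kb upstream, while 27.3 kb upstream DMSO and Corin reach 13.7 and 18.3.

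At FAS, 2 of the 9 regions called in both lists were higher with ATRA than with DMSO (17.5% of all regions). Of its 12 regions, 3 were called with ATRA and not with DMSO (18.5% of all regions) and 0 were lost (20.7%). Its gene body starts well upstream in the annotation, because some transcripts begin near ACTA2 and STAMBPL1, and distances here are from the start of the main transcript. The intronic region 6.4 kb downstream of that start (chr10:88996820-88997495) had folds of 6.67 with DMSO, 20.3 with ATRA, 4.60 with Corin and 12.9 with the combination. ATRA exceeded DMSO by 1.29 (0.94 to 1.65) and the combination exceeded Corin by 1.38 (0.97 to 1.78). The fold of this region with ATRA was the highest of any FAS region in any list, while with DMSO and Corin the promoter stood higher. The promoter, by contrast, had 10.2, 11.2, 10.5 and 12.6 in the same order and passed 1.5-fold in no comparison.

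Downstream of FAS, the intergenic region 40.2 kb from the start (chr10:89030841-89031470) had folds of 3.72, 9.39, 2.48 and 4.55. It was higher with ATRA than with DMSO by 1.03 (0.54 to 1.51), higher with the combination than with Corin by 0.76 (0.17 to 1.36), and lower with the combination than with ATRA (-0.76, -1.21 to -0.31), a ratio that was -0.52 and not past 1.5-fold on solved pileups. Its neighbour 39.2 kb from the start (chr10:89029703-89030305) had 9.64, 9.49, 4.46 and 8.44, and was low with Corin alone, at -1.03 against DMSO (-1.46 to -0.60). These regions, 1 kb apart, thus differed in which list stood apart.

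The regions called with ATRA and not with DMSO were weaker. The region 15.7 kb upstream of the FAS start (chr10:88974648-88975837), which overlaps the last exon of a STAMBPL1 transcript, had a fold of 9.09 with ATRA, 3.25 with Corin and 4.82 with the combination. A region 6.6 kb upstream was called with ATRA at 5.14 and with the combination at 3.28, in both lists with ATRA and neither without. A region 46.5 kb downstream was called with ATRA only, at 4.05. Absence from a list means that no peak passed the authors' threshold, not that the site was closed.

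**Figure D2:**
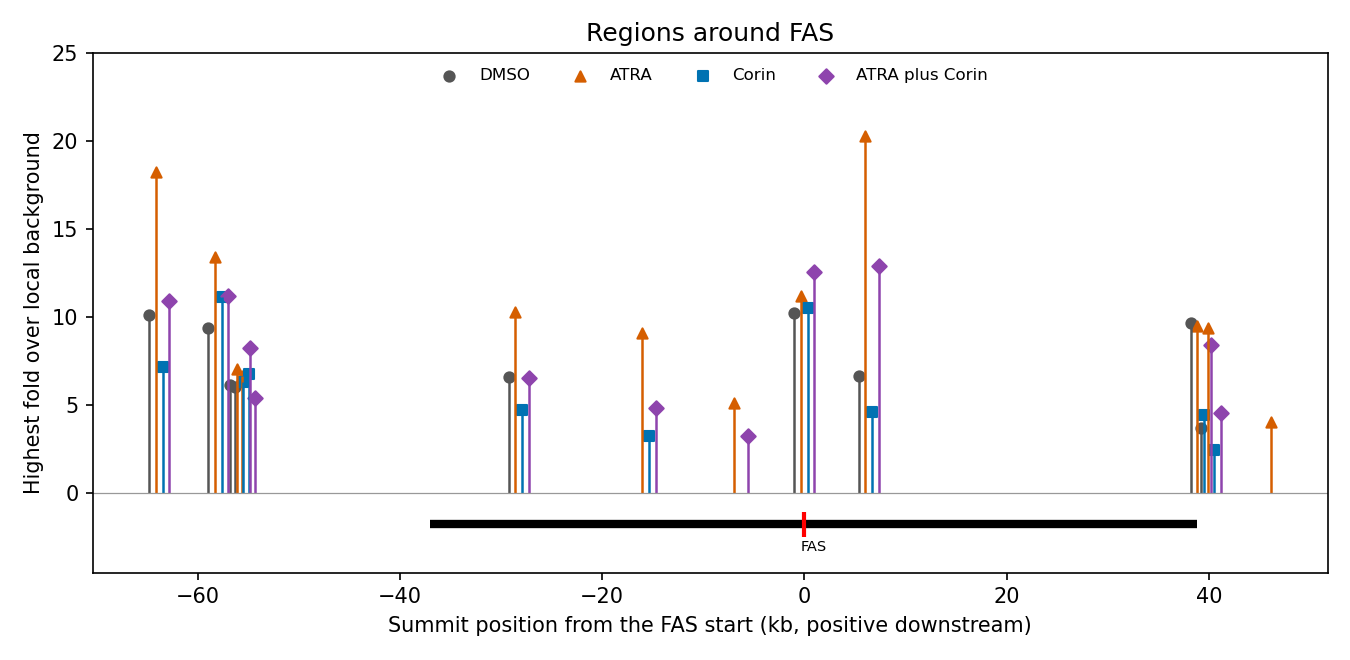
Highest fold over local background (vertical axis, linear) of each region around FAS by the position of its summit from the main start in kb (horizontal axis), drawn as 1 stem per peak list side by side. The black bar spans all annotated FAS transcripts and the red tick marks the main start. The ATRA stem is highest in the intron 6.4 kb downstream, at 20.3, while the 4 promoter stems lie between 10.2 and 12.6.

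The 4 TRAIL receptor genes lie side by side on chromosome 8, between 23020133 and 23225102, so most regions fall in the windows of several of them. Only 20 of their 55 regions (36.4%) were present in all 4 lists, against 9 of 14 at TNFSF10, 9 of 12 at FAS and 41.1% of all regions in the genome. Of the 20 regions at the 6 genes that were called in 1 list only, 19 lay here. They were 9 in the Corin list, 6 in the DMSO list, 3 in the ATRA list and 1 in the combination list. Most of these were weak: the 9 regions called with Corin and not with DMSO had folds of 1.53 to 2.68. Of all 161291 regions in the genome, 12977 were called with Corin only, 16454 with DMSO only, 18378 with ATRA only and 6343 with the combination only.

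Among the death receptors, TNFRSF10B had an open promoter (chr8:23067552-23069467) with folds of 10.3, 12.1, 8.84 and 9.95 for DMSO, ATRA, Corin and the combination. None of its ratios passed 1.5-fold. The strongest region near it lay 15.3 kb upstream (chr8:23083677-23085020), at 16.9, 20.5, 16.8 and 18.6, with no ratio of folds past 1.5-fold. On solved pileups that region was lower with ATRA than with DMSO, at -0.67. The TNFRSF10A promoter (chr8:23224992-23225400) was the weakest of the 6 genes, at 2.07 with DMSO, 4.03 with ATRA and 2.16 with the combination, and was not called with Corin. Its ratio of ATRA over DMSO was 0.65 (0.25 to 1.06), but the pileups were 98 reads with DMSO and 100 with ATRA over backgrounds of 46.8 and 24.0, and the ratio of pileups was -0.08. A higher fold there thus came with a lower local background and not with more reads.

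Inside TNFRSF10A, the intronic region 22.8 kb downstream of the start (chr8:23201497-23202718) had folds of 3.79, 10.3, 2.56 and 5.08 for DMSO, ATRA, Corin and the combination. ATRA exceeded DMSO by 1.14 (0.75 to 1.53) and the combination exceeded Corin by 0.88 (0.37 to 1.38). A second intronic region 6.1 kb downstream (chr8:23218701-23219135) had 2.55, 5.34, 2.19 and 4.58, with ratios of 0.76 (0.43 to 1.09) and 0.95 (0.59 to 1.30). On solved pileups these ratios were 0.47 and 0.19 for the first region and 0.05 and 0.09 for the second, none past 1.5-fold. A region 11.4 kb upstream of TNFRSF10A was called in both lists with ATRA, at 7.02 and 6.90, and in neither without it.

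Among the decoy receptors, TNFRSF10D had the strongest promoter of the cluster (chr8:23162979-23164433), with folds of 12.3, 17.6, 9.61 and 11.2 for DMSO, ATRA, Corin and the combination, and no ratio past 1.5-fold. The TNFRSF10C promoter (chr8:23102565-23103900) stood at 8.18, 10.5, 4.73 and 6.45. It was lower with Corin than with DMSO by a ratio of -0.70 (-1.03 to -0.38), with pileups of 116 and 216 reads over backgrounds of 23.7 and 25.5. Centred within classes of fold the ratio was -0.58, not past 1.5-fold. ATRA alone left it at a ratio of 0.05 (-0.22 to 0.32), and the combination stood at -0.38 against DMSO (-0.67 to -0.09). At the summit that was highest in the other lists the combination had 5.74, and its ratio to DMSO was -0.55. Over the 3 ratios to DMSO of the highest folds, the promoters of CLNK, HLA-DPB1 and DNAJC12 were nearest to the TNFRSF10C promoter among protein-coding genes. Their Corin ratios were -0.69, -0.68 and -0.65.

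Ahead of TNFRSF10C a pair of neighbouring regions had opposite orders. The region 10.4 kb upstream (chr8:23092174-23093322) had folds of 5.50 with DMSO, 9.34 with Corin and 4.25 with the combination, and was not called with ATRA. Corin exceeded DMSO there by 0.85 (0.53 to 1.17), and the combination was lower than Corin (-1.25, -1.61 to -0.90). The region 12.4 kb upstream (chr8:23090160-23091597) had 5.59, 9.80, 3.62 and 8.51 for DMSO, ATRA, Corin and the combination. There the combination exceeded Corin by 1.12 (0.73 to 1.51), and ATRA exceeded DMSO by 0.50, which is not past 1.5-fold.

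Further regions of the cluster belong nearer to other genes or changed in 1 pair only. The region 80.9 kb downstream of the TNFRSF10B start, at the start of RHOBTB2, had folds of 3.49, 7.56 and 3.02 with DMSO, ATRA and the combination. Its ratio of ATRA over DMSO was 0.81 in fold and -0.01 in solved pileup, and that of the combination over ATRA was -1.04 and -0.55. The region 17.1 kb upstream of TNFRSF10D (chr8:23180783-23181508) was lower with the combination than with ATRA, at 4.39 against 9.22 (ratio -0.78, -1.02 to -0.55), but on solved pileups the ratio was -0.54 and not past 1.5-fold.

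**Figure D3:**
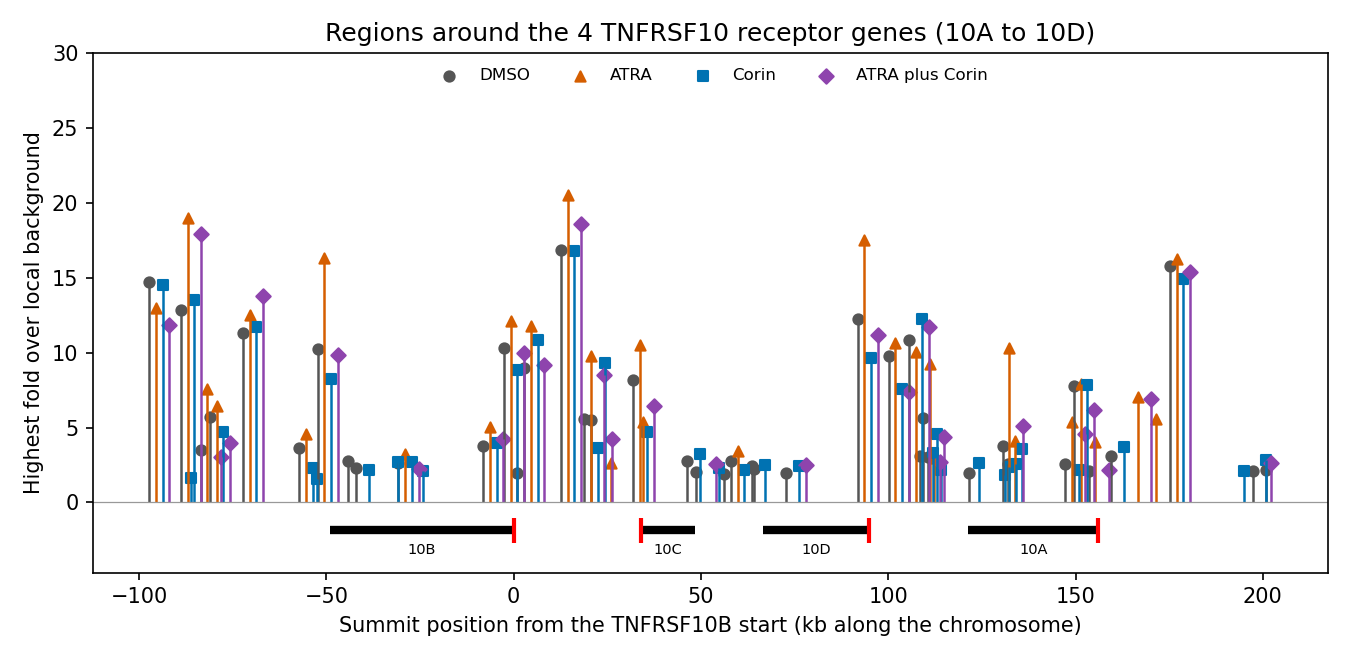
Highest fold over local background (vertical axis, linear) of each region around the 4 TNFRSF10 genes by position along the chromosome in kb from the TNFRSF10B start (horizontal axis), drawn as 1 stem per peak list side by side. Black bars are the genes, labelled 10A to 10D, with their starts in red. Stems are tallest 15.3 kb upstream of TNFRSF10B, near the promoter of TNFRSF10D and at neighbouring genes, and many weak regions appear in 1 list only.

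**Figure D4:**
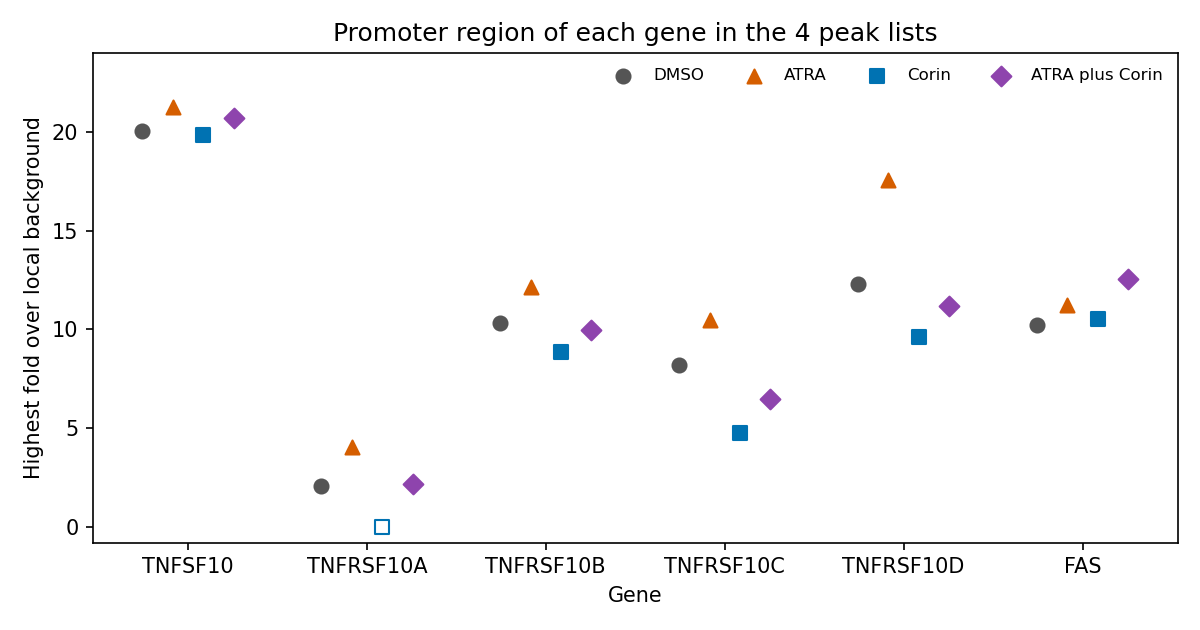
Highest fold over local background (vertical axis, linear) of the promoter region of each of the 6 genes (horizontal axis) in the 4 peak lists, 1 point per list. The open square marks TNFRSF10A with Corin, where no peak was called. TNFSF10 is highest in every list, between 19.9 and 21.3, and TNFRSF10A lowest.

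In each list the promoters of the 6 genes spanned a wider range of folds than any one of them did between lists. TNFSF10 stood at 20.03, 21.3, 19.9 and 20.7, above the medians of 13.0, 14.8, 13.1 and 14.1 over all protein-coding genes with an open promoter. The promoters of FAS and the 4 TRAIL receptors lay below those medians, except TNFRSF10D with ATRA at 17.6. All but TNFRSF10A had a promoter region in all 4 lists, as did 59.6% of protein-coding genes. Against DMSO, 1 of the 6 promoters was higher past 1.5-fold with ATRA (TNFRSF10A) and 0 lower, against 2.83% and 2.9% of all protein-coding promoters. With Corin 0 of the 5 called in both lists were higher and 1 lower (TNFRSF10C), against 1.33% and 1.08%. With the combination 0 of 6 passed in either direction (2.18% and 1.38%).

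Counts over the 3 loci put these regions against the genome. With ATRA, 9 of the 46 regions called in both lists were higher than with DMSO and 0 were lower, while over all regions 17.5% were higher and 8.1% lower. The median ratio of the 46 was 0.01, against 0.03 for all regions. A further 8 of 71 were called with ATRA and not DMSO (18.5% of all regions) and 17 with DMSO and not ATRA (20.7%). Of those 17, 15 lay in the receptor cluster, and 2 ranked in the upper 50% of the DMSO list by p, those 27.3 kb upstream of TNFSF10 and 10.4 kb upstream of TNFRSF10C. The split depends on the measure: on solved pileups 5 of the 46 were higher and 11 lower (18.03% and 16.8% of all regions), and without centring 15 were higher and 0 lower (31.9% and 3.07%).

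With Corin, 2 of 53 regions were higher than with DMSO (6.36% of all regions) and 4 lower (10.8%). The higher ones lay 10.4 kb upstream of TNFRSF10C and 45.5 kb upstream of TNFSF10, and the lower ones were the TNFRSF10C promoter and regions 39.2 kb from the FAS start, 61.7 kb from the TNFSF10 start and 54.5 kb from the TNFRSF10B start. Regions called in 1 list of the pair numbered 11 of 74 for Corin (13.4%) and 10 for DMSO (24.6%). On solved pileups 8 were higher and 4 lower (10.3% and 13.8% of all regions), and with centring within classes of fold 4 were higher and 1 lower (7.92% and 8.48%).

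With the combination, 5 of 47 regions were higher than with DMSO (8.05% of all regions) and 2 lower (12.3%). The 5 were the 3 upstream TNFSF10 regions, the FAS intron at 0.92 (0.56 to 1.28) and the TNFRSF10A intron 6.1 kb from the start, and the 2 lay 27.3 and 18 kb upstream of TNFSF10. A further 5 of 68 were called with the combination and not DMSO (12% of all regions) and 16 with DMSO and not the combination (27.9%). On solved pileups 5 were higher and 9 lower (11.7% and 20.5% of all regions). These 5 held the region 86.2 kb from the TNFRSF10B start (0.85) in place of the TNFRSF10A intron, which stood at -0.08.

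Adding Corin to ATRA gave 1 higher region of 45 (5.8% of all regions) and 6 lower (19.9%). The 6 were the FAS regions 15.7 kb upstream and 40.2 kb downstream, the TNFRSF10A promoter and its intron 22.8 kb from the start, and the regions near RHOBTB2 and TNFRSF10D described above. On solved pileups 6 were higher and 3 lower (11.4% and 21.5% of all regions), and without centring 0 and 16 (1.89% and 33.1%). Adding ATRA to Corin gave 8 higher regions of 45 (9.39%) and 3 lower (9.29%), and on solved pileups 6 and 11 (11.5% and 16.9%).

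The pair of ATRA against DMSO and the pair of combination against Corin share no list, so they are separate views of adding ATRA. At the 6 genes 6 of 38 regions present in all 4 lists were higher in both pairs (6.23% of all such regions) and 0 were lower in both (3.26%). They were the TNFSF10 regions 45.5 and 23.6 kb upstream, the FAS regions 6.4 and 40.2 kb from the start, and both TNFRSF10A introns. With folds taken at matched summits, within 50 bp of the highest one, 37 regions had a value in all 4 lists and the same 6 passed. The share over all regions was not computed at matched summits. On solved pileups the 4 at TNFSF10 and FAS passed and the TNFRSF10A introns did not (8.74% of all such regions). For Corin, the pairs of Corin against DMSO and combination against ATRA had 0 of 38 higher in both (1.89%) and 0 lower in both (6.36%). In 29 of the 38 regions all 4 summits lay within 50 bp of one another. Merging overlapping peaks favours close summits, and the share over all regions was not computed.

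**Figure D5:**
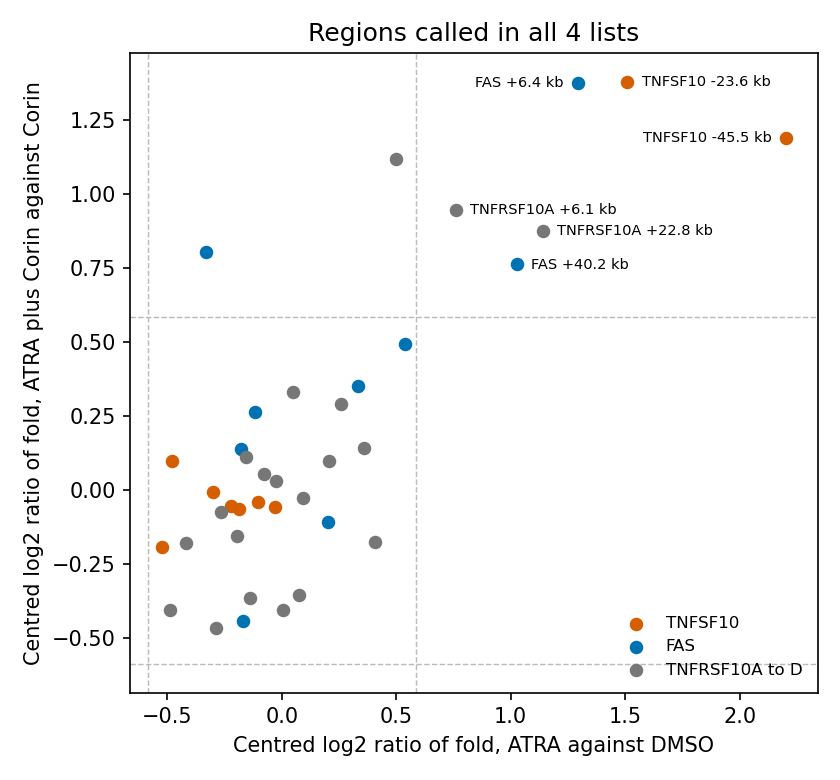
Centred log2 ratio of fold, ATRA over DMSO (horizontal axis), against that of the combination over Corin (vertical axis), 1 point for each of the 38 regions present in all 4 lists, coloured by locus. Dashed lines mark 1.5-fold, and the 6 named points lie past it on both axes, led by TNFSF10 45.5 kb upstream at 2.20 and 1.19.

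Other genes of the death receptor pathway were described at their promoters, from a list of 20 that takes in adaptors (FADD, TRADD), the initiator caspase CASP8, inhibitors (CFLAR, BIRC2, XIAP) and other ligands and receptors. Promoter regions were found for 18, and not for FASLG, the ligand of FAS, or for TNFRSF25. With ATRA 0 of 18 were higher and 1 lower, against 2.83% and 2.9% of all protein-coding promoters. The lower one was BIRC2, an inhibitor of apoptosis, at 14.8 against 18.9 with DMSO (ratio -0.67). With Corin 0 of 17 were higher and 0 lower (1.33% and 1.08% of all), and with the combination 0 of 18 in either direction (2.18% and 1.38%). The combination against ATRA had 1 of 18 higher and 1 lower, against 633 and 347 of all 12112 protein-coding promoters. The higher one was BIRC2 (ratio 0.65). The lower one was TNFRSF11B (-0.96), at 4.42 with DMSO, 7.61 with ATRA and 3.21 with the combination, and not called with Corin. The combination against Corin had 0 of 17 in either direction. The median ATRA ratio of the list was -0.09, against -0.17 for all promoters. CASP8 had 6.19, 6.43, 7.56 and 6.72 for DMSO, ATRA, Corin and the combination, and FADD had 11.0, 9.70, 8.86 and 10.4.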

How the data were processed

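The input was 1 deposited narrowPeak list of ATAC-seq peaks for each group (the vehicle, either compound, or both), made by the authors from 2 samples and described as overlapped and filtered in the file names. Per the submitters' processing notes, cutadapt, Bowtie2, SAMtools, Picard and MACS2 were used with the build hg38, and versions and settings are not given in the sources used here. Each deposited peak has a fold, which is the ratio of its signal to the background around it, and a p and a q on the −log10 scale. These units follow from the narrowPeak layout and the numbers. No per-sample columns were left out (0).

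Peaks on 24 chromosomes were merged at an overlap of at least 1 bp, with Python 3.11.15, pandas 2.3.3 and pysam 0.24.0, and each region took the highest fold of each list. Pileup and background were solved from fold and p as a Poisson probability with 1 added to each in the fold. The pileup was whole within 0.05 for at least 99.96% of peaks. The steps were tested on simulated data. Gene windows came from GENCODE release 44, and a promoter region lay within 1 kb of the main transcript's start.

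The 6 genes, the pathway and marker lists and the rules were chosen with earlier results of these data known. Described in full by rule were promoters, the strongest region of each window, regions gained or lost over DMSO in the upper 50% of their list by p, and the 3 largest ratios each way. Other regions, the motif coincidences and the paired ATRA count were picked after their values were seen. The values per list carry no replicate error, and reads are not independent molecules, so intervals cover counting error only.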

Additional observations from a re-analysis of the deposited data

How the results depend on the processing

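No paired analysis was possible because 1 list per group was analysed, and for the same reason no replicate could be left out. Counts of regions are given against DMSO unless another list is named, and the cause of each shift was not tested. With peaks of −log10 q of at least 5, ATRA lost 9, Corin gained 7 and lost 6, and the combination had 1 lower. Lists of equal length gave the combination 8 gained, and an overlap of at least 50% gave it 9. Within 10 kb of the genes, where fewer regions were counted, ATRA had 5 gained and 5 higher, Corin 1 higher, the combination 2 gained, 2 higher and 0 lower, the combination over ATRA 0 higher, and over Corin 5 higher and 1 lower. At 2-fold Corin had 0 higher and 1 lower, the combination 2 higher, the combination over ATRA 0 higher and 1 lower and over Corin 4 higher, and BIRC2 was no longer lower with ATRA (0 of the pathway promoters). Centring within 20 classes of fold gave Corin 4 higher, 1 lower and 0 of the 5 promoters called in both lists. It gave the combination over ATRA 2 higher. Without centring ATRA had 15 higher, 3 pathway promoters higher and 0 lower, Corin had 1 higher, and the combination over ATRA 0 higher, 16 lower and 3 of the 6 promoters. Solved pileups gave ATRA 5 higher, 11 lower and 0 promoters, Corin 8 higher, the combination 9 lower and 1 promoter, the combination over ATRA 6 higher and 3 lower, and over Corin 11 lower. They reversed the ATRA ratio of the TNFRSF10A promoter to -0.083 and that of the region 80.9 kb from the TNFRSF10B start to -0.010. They also reversed the combination ratio of the TNFRSF10A intron 6.1 kb from the start, from 0.81 to -0.085. No other ratio past 1.5-fold in the regions of the 6 genes changed sign without centring, with centring within classes or on solved pileups. Promoter ratios under 1.5-fold did change sign, among them TNFRSF10A with the combination (0.03 to -1.02 on solved pileups), TNFRSF10D with Corin (-0.27 to 0.12 on solved pileups) and FAS with ATRA (-0.18 to 0.13 without centring). A difference of 20 percentile points gave 4 lower with ATRA, 2 with Corin and 1 with the combination, and the combination over ATRA 6 higher and 0 lower and over Corin 5 higher. Merging peaks within 150 bp kept all 21 counts within 1.5 times. Regions higher in both ATRA pairs, examined under settings chosen after seeing the data, numbered 4 to 8. Read depth is unknown, and its part in regions called in 1 list only was not tested.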
